A study of Mus musculus with 8 samples.

Results

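The forkhead (Fox) genes of PN day 3 mouse molar mesenchyme were examined, as the rows whose gene name is Fox followed by a letter from a to s, a number and, in some names, a further letter. Of the 20926 genes in the table, 29 matched. GENCODE release M21 lists 44 protein-coding mouse genes with such names, and the others were not analysed here. The table holds only genes that reach 10 estimated reads in some library, so a forkhead gene silent in all 8 libraries could not appear in it.

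The 8 libraries came from molars of PN day 3 mice, 4 *Ezh2fl/fl* (control) and 4 *Osr2KI-Cre;Ezh2fl/fl*. Both groups carry the floxed *Ezh2* alleles, and the strain label reads C57BL/6, while the study's methods speak of a mixed background. The Cre is knocked into *Osr2*, a gene of the dental mesenchyme, so recombination is directed to the mesenchyme and not to the dental epithelium. By the labels the epithelium was removed before RNA isolation, but epithelial transcripts were abundant in every library. The libraries are numbered 1 to 4 in each group without a statement of the animals behind each number, so p-values measure only the spread between these samples, which may in part be technical. The comparison addresses which genes change in the mesenchyme when *Ezh2* is deleted before the roots form.

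Forkhead proteins are transcription factors that bind DNA through a winged-helix domain named after the Drosophila fork head gene. Several of them, among them *Foxc1*, *Foxc2*, *Foxd1*, *Foxf1* and *Foxf2*, pattern mesenchyme in the embryo, and *Foxf1* and *Foxf2* respond to hedgehog signals from a neighbouring epithelium. Others serve in most cells: the FoxO factors respond to insulin and growth factors, and *Foxm1* drives genes of mitosis. *Ezh2* is the catalytic subunit of the Polycomb repressive complex PRC2, which places H3K27me3, and genes for developmental transcription factors with CG-rich promoters are classical PRC2 targets.

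The deposited values are normalized values brought to a common 75th percentile and not divided by gene length. The estimated depth was 48.3 to 68.8 M reads per library, at which each read adds 0.0129 to 0.019 to a value. *Ezh2* itself had values of 55.0, 38.3, 39.6 and 39.0 in control and 35.2, 30.1, 23.2 and 36.0 in *Osr2KI-Cre;Ezh2fl/fl* molars, with all 4 values below all controls (log2 fold change -0.46, exact permutation p = 0.0286, limma adjusted p = 0.235). Dental mesenchyme markers summed to 9551 to 11585 in control and 7866 to 9560 in *Osr2KI-Cre;Ezh2fl/fl* libraries, and all 10 were in the table. Their log2 fold changes were positive in 5 and negative in 5 (median -0.04), and the lower sum came mainly from *Col1a1* (7654 ± 769 and 6649 ± 1223) and *Dspp* (2138 ± 614 and 1113 ± 817; SD, n = 4). The 6 epithelial markers, among them *Krt14* and *Epcam*, were present at summed values of 1801 to 3920 and 1700 to 2369. The enamel matrix transcripts *Amelx*, *Ambn* and *Enam* differed widely between libraries, as their mean log2(value + 1) was 12.1 in control 3, 13.02 in control 4 and 11.5 in *Osr2KI-Cre;Ezh2fl/fl* 3, against 7.10 to 9.37 in the other 5 libraries. Counts are therefore also given without those 3 libraries.

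The members were set apart by their level in control molars. Of the 29 genes, 4 were near zero (mean value under 0.5), 8 were intermediate (0.5 to under 5) and 17 were well expressed (5 and over). These classes are made from control values that also enter each difference, so they describe the genes and are not tested. The filtered fit was restricted to genes reaching a value of 1 in 4 or more libraries, which left 23 members among 14854 genes. A second fit held all 20926 genes. Fold changes are differences in mean log2(value + 1), and understate the change of low genes.

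**Figure D1:**
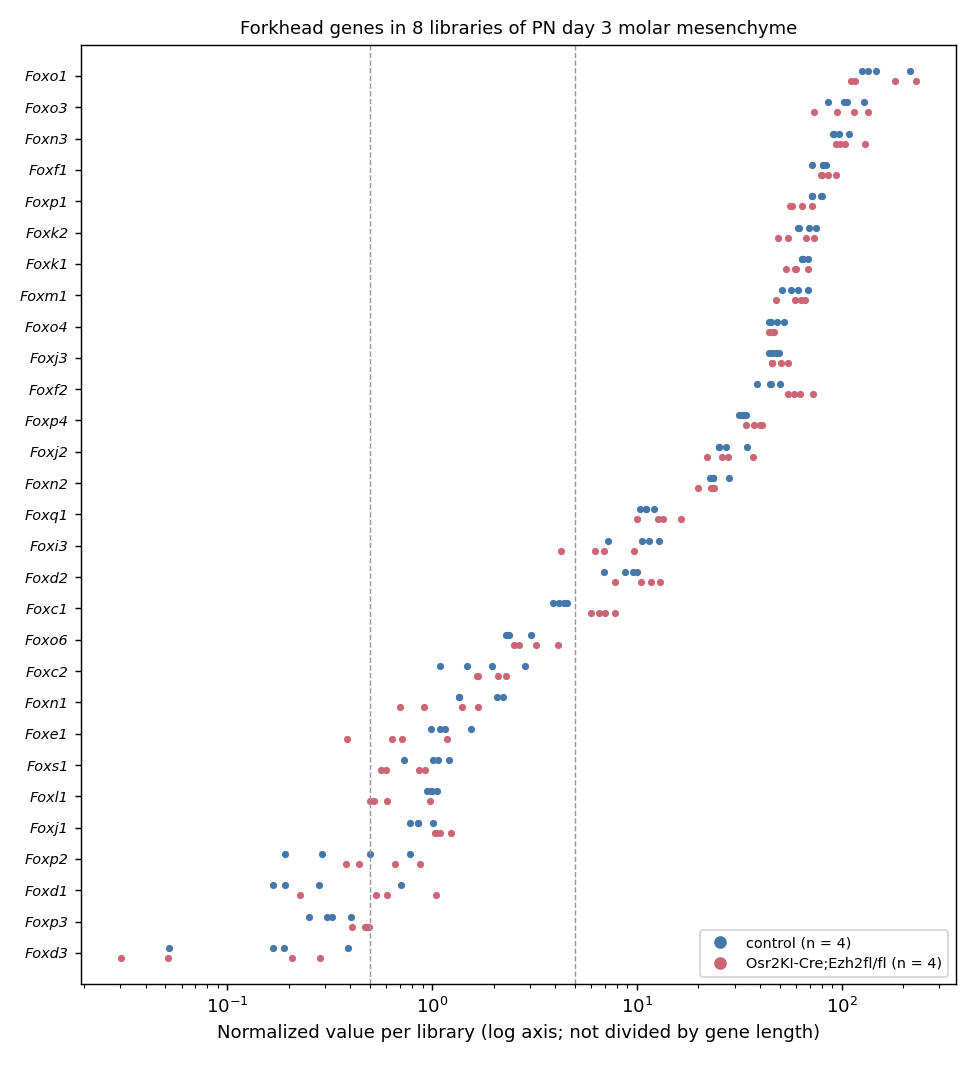
Normalized value (log axis, not divided by gene length) of the 29 forkhead genes in each of 4 control (blue) and 4 *Osr2KI-Cre;Ezh2fl/fl* (red) libraries, ordered by control mean; dashed lines mark the class limits 0.5 and 5. *Foxo1* lies at the top with 111 to 230, *Foxd3* at the bottom with 0.0303 to 0.389, and the groups are apart without overlap in *Foxc1*, *Foxf2*, *Foxp4*, *Foxj1* and *Foxp3*.

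Few members of the family passed the test. *Foxc1*, a factor of mesenchyme in the eye, skull and kidney, rose in *Osr2KI-Cre;Ezh2fl/fl* molars and was the 1 member of 23 called in the filtered fit (4.35%), where 2.07% of all genes were called, 1.56% higher and 0.512% lower. In the fit of all genes *Foxc1* was again the 1 call among 29 (3.45%), beside 1.56% of all genes (1.22% higher and 0.339% lower). No member was called lower by limma in either fit, or by voom on the estimated reads. At an unadjusted p under 0.05 limma gave 3 higher (*Foxc1*, *Foxf2* and *Foxp4*) and 3 lower (*Foxe1*, *Foxi3* and *Foxp1*) in the filtered fit, beside 8.27% of all genes higher and 4.87% lower (13.1% together). In the fit of all genes it gave 5 higher (*Foxj1* and *Foxp3* in addition) and 4 lower (*Foxl1* in addition), beside 7.96% and 4.51% of all genes (12.5% together). The members were spread about evenly around zero, with 12 positive and 11 negative log2 fold changes in the filtered fit, where 54.1% of all genes were positive, and a median of 0.0034 beside 0.013 for all genes tested. In the fit of all genes 15 of 29 were positive, beside 55.5% of all genes. In bulk RNA a difference in the number of cells that express a gene and one in the RNA per cell cannot be told apart.

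The groups did not overlap in 5 of the 29 members (*Foxc1*, *Foxf2*, *Foxj1*, *Foxp3* and *Foxp4*), or 17.2%, all of them higher in *Osr2KI-Cre;Ezh2fl/fl* molars. Of all genes 5.55% were higher in this way. No member had all 4 values below the controls, against 2.65% of all genes. By class they were 1 of 4 near zero members (5.86% of all near zero genes higher and 1.86% lower), 2 of 8 intermediate (8.27% and 2.9%) and 2 of 17 well expressed (4.42% and 2.87%). For these 5 genes the exact permutation p was 0.0286, the smallest that the 70 arrangements of 8 libraries allow. The count was 4 with median-of-ratios scaling, where *Foxp4* and *Foxj1* overlapped and *Foxp1* was lower without overlap (3 higher and 1 lower, beside 4.88% and 3.34% of all genes). With quantile normalization it was 5, where *Foxj1* overlapped and *Foxl1* was lower without overlap (4 higher and 1 lower, beside 4.5% and 3.37% of all genes). It was 9 without the 3 libraries high in enamel matrix transcripts, where 2 control and 3 *Osr2KI-Cre;Ezh2fl/fl* libraries remained and groups part more easily. Of the 29 members 7 were then higher and 2 lower, beside 2640 and 2126 of all 20926 genes.

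**Figure D2:**
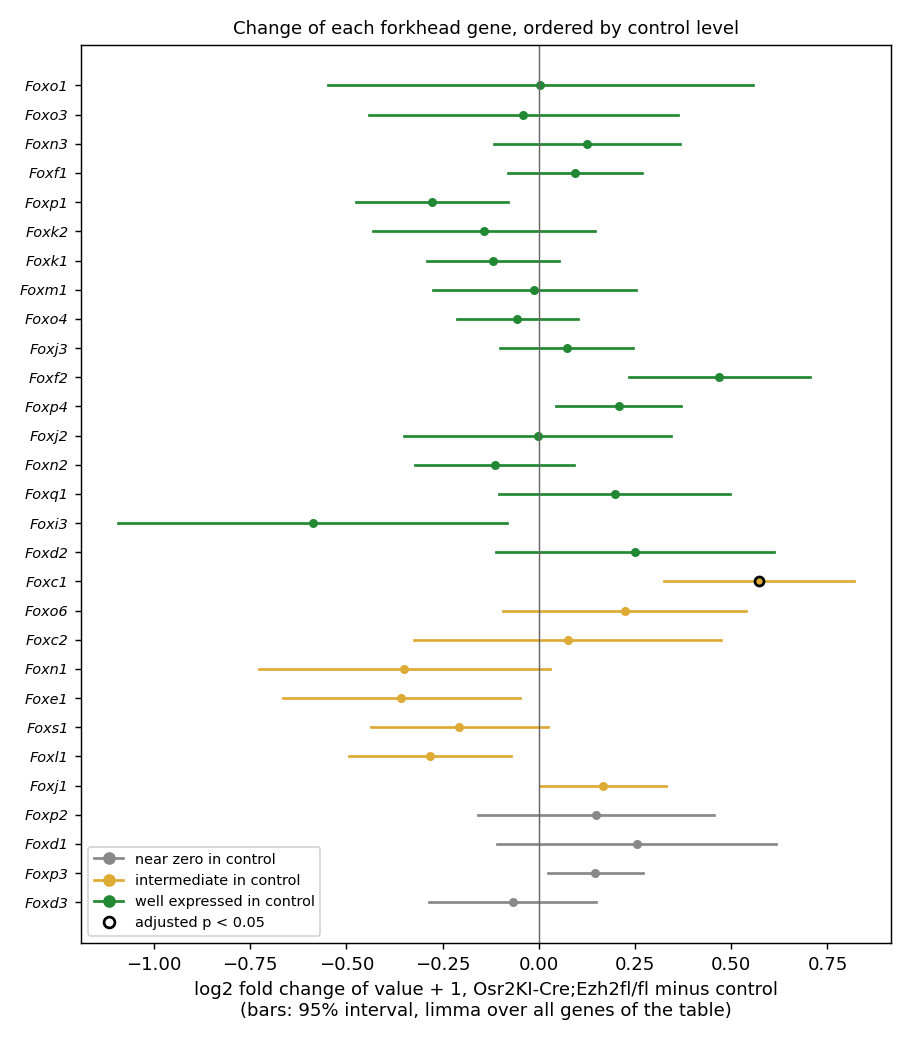
Log2 fold change of value + 1 (x axis, *Osr2KI-Cre;Ezh2fl/fl* minus control) of each forkhead gene with its 95% interval from limma over all genes of the table, ordered by control level and coloured by class. The ringed point is *Foxc1* at 0.57, and most other intervals span 0.

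The upstream sequences of a few members are shown because CG-rich promoters are typical of PRC2 targets. They are the 250 bases before the start in RefSeq on GRCm38.p6, the build of the files, read 5′ to 3′ on the strand of the gene, with each CG in capitals. *Foxc1* (chr13:31806396-31806645, plus strand) and *Foxf2* (chr13:31625566-31625815, plus strand) are shown as the members with the largest positive log2 fold changes. *Foxd2* (chr4:114908899-114909148, minus strand) is shown for its neighbour *Foxd2os*, which starts on the other side of this stretch. *Foxd1* (chr13:98353995-98354244, plus strand) and *Foxd3* (chr4:99656049-99656298, plus strand) stand for the genes near zero in control.
Foxc1: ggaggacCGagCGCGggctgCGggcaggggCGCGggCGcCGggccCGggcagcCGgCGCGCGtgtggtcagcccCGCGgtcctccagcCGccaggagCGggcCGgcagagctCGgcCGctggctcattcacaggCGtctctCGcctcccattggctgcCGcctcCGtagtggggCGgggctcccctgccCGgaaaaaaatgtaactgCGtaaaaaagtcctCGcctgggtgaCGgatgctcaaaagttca
Foxf2: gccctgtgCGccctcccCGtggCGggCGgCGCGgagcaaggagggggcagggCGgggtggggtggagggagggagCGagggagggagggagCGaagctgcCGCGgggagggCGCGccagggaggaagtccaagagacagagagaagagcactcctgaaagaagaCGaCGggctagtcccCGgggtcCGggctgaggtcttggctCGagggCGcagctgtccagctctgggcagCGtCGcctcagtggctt
Foxd2: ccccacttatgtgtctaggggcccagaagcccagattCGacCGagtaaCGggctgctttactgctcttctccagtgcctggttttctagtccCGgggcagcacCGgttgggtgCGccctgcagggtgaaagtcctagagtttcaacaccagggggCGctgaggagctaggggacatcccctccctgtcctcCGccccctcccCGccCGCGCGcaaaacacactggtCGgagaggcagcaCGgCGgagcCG
Foxd1: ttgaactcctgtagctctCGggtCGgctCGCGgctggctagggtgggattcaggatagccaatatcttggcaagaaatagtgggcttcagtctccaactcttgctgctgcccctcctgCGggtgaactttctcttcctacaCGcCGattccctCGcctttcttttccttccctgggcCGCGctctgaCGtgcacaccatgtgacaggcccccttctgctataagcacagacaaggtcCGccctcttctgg
Foxd3: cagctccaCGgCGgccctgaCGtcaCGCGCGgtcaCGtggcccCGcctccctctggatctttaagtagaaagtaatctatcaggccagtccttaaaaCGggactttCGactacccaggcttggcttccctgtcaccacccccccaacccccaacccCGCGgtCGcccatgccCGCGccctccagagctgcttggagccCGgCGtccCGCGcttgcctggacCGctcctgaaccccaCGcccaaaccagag
These stretches hold 29, 21, 16, 12 and 21 CG, in the order given. A RefSeq promoter was matched for 16 of the 29 members, and *Foxc2*, *Foxe1*, *Foxf1*, *Foxj1*, *Foxk1*, *Foxl1*, *Foxm1*, *Foxn2*, *Foxo4*, *Foxo6*, *Foxp2*, *Foxq1* and *Foxs1* had none. The median was 21 CG (range 5 to 48) in the 16 members and 14 over the 12999 genes of the table with a promoter. The RefSeq start lay within 1 kb of the start in the table for 13 of the 16, and the lowest count, 5 in *Foxn3*, is from a start 113508 bases away. At least 1 CG was present in 98.4% of all promoters. At least 10 CG were found in 13 of 16 members (81.25%) and in 66.8% of all. The 3 near zero members with a promoter had 12 (*Foxd1*), 21 (*Foxd3*) and 6 (*Foxp3*), where the median of all near zero genes was 5. The 11 well expressed members had a median of 24, beside 17 for all well expressed genes. The CG count is a description of the sequence and no measure of H3K27me3 or of PRC2 binding.

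*Foxc1* had values of 4.19, 4.57, 3.89 and 4.40 in control and 6.54, 5.99, 7.82 and 7.02 in *Osr2KI-Cre;Ezh2fl/fl* molars. The highest control lies below the lowest *Osr2KI-Cre;Ezh2fl/fl* value, and the means were 4.26 ± 0.297 and 6.84 ± 0.777 (SD, n = 4). The log2 fold change was 0.57 (SE 0.10, limma adjusted p = 0.0202 in the filtered fit and 0.0348 over all genes). These values rest on 225 to 340 estimated reads per control library and 344 to 552 per *Osr2KI-Cre;Ezh2fl/fl* library. The gene lies at chr13:31806633-31812476 on the plus strand of mm10. Its direction held in every alternative tried, with log2 fold changes from 0.35 to 0.68, while the call depended on which library was left out: without control 1, 2, 3 or 4 or *Osr2KI-Cre;Ezh2fl/fl* 4 the limma adjusted p in the filtered fit was 0.0520 to 0.0944, and without *Osr2KI-Cre;Ezh2fl/fl* 1, 2 or 3 it was 0.0322 to 0.0403. It was 0.156 with the replicate number as a block, and 0.351 without the 3 libraries high in enamel matrix transcripts (log2 fold change 0.48).

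*Foxf2*, which acts in palate, gut and vessel-associated mesenchyme, lies 175.2 kb before *Foxc1* on chromosome 13 with no other gene of the table between them. Its values were 44.8, 50.0, 45.0 and 38.5 in control and 58.6, 72.6, 54.5 and 62.8 in *Osr2KI-Cre;Ezh2fl/fl* molars. All 4 lie above the controls, with means of 44.6 ± 4.71 and 62.2 ± 7.75 (SD, n = 4). The log2 fold change of 0.47 (SE 0.11) narrowly missed the threshold (limma adjusted p = 0.0615), and stayed between 0.38 and 0.53 in the alternatives. *Foxq1*, which completes this cluster 64.8 kb before *Foxf2*, is known for its role in hair structure. Its values of 11.03, 12.2, 10.4 and 11.1 in control and 16.4, 12.6, 13.4 and 10.1 in *Osr2KI-Cre;Ezh2fl/fl* molars overlap, with a log2 fold change of 0.20 (limma adjusted p = 0.633) that turned to -0.10 with array weights.

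The cluster on chromosome 8 holds *Foxf1*, *Foxc2* and *Foxl1*, with 28.0 kb from *Foxf1* to *Foxc2* and 9.0 kb from *Foxc2* to *Foxl1*. *Foxf1*, required in lung, gut and vessel mesenchyme, had the highest level per kilobase of transcript in the family, 32.9 ± 2.26 in control (value per kb, SD, n = 4). Its values were 81.1, 81.2, 83.7 and 71.4 in control and 80.4, 93.8, 79.2 and 85.9 in *Osr2KI-Cre;Ezh2fl/fl* molars. The groups overlap, and the log2 fold change was 0.09 with a 95% interval from -0.08 to 0.27. *Foxc2*, a regulator of lymphatic vessels and axial mesenchyme, was low and scattered, at 1.09, 2.86, 1.48 and 1.96 in control and 2.29, 1.68, 2.11 and 1.65 in *Osr2KI-Cre;Ezh2fl/fl* molars. *Foxl1*, a marker of subepithelial mesenchyme in the gut, had 0.990, 1.06, 0.997 and 0.948 in control and 0.607, 0.50, 0.523 and 0.981 in *Osr2KI-Cre;Ezh2fl/fl* molars. In *Foxl1*, 3 of 4 *Osr2KI-Cre;Ezh2fl/fl* values were below every control and the fourth was within the control range (log2 fold change -0.28, limma adjusted p = 0.218 over all genes). The read-through gene *Gm20388* overlaps all 3 genes on the same strand, so the assignment of their reads is uncertain.

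**Figure D3:**
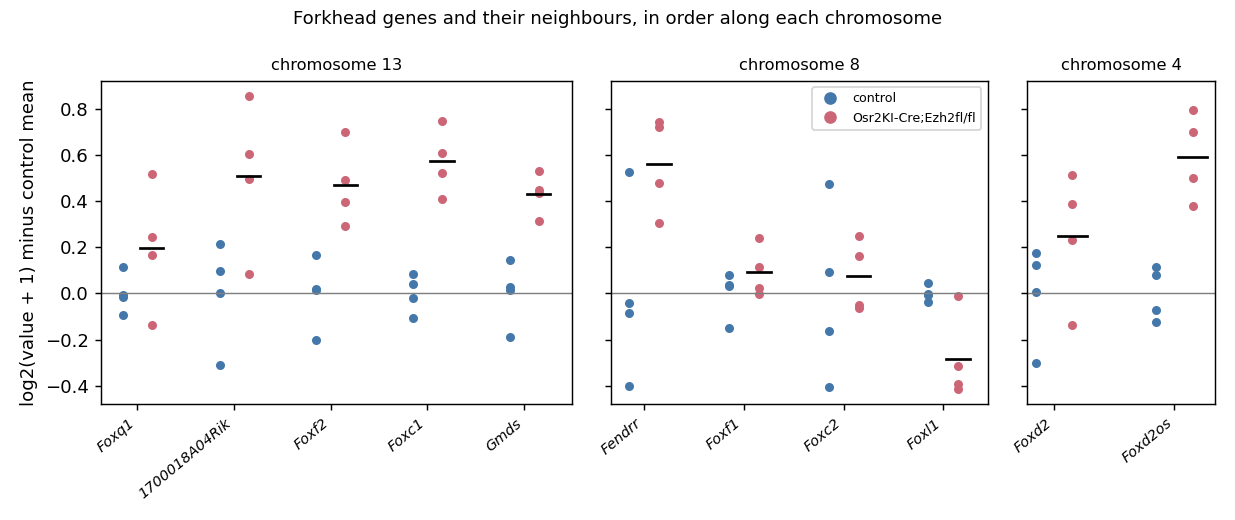
Log2(value + 1) minus the control mean (y axis) in each control (blue) and *Osr2KI-Cre;Ezh2fl/fl* (red) library for forkhead genes and close neighbours, in the order in which they lie on chromosomes 13, 8 and 4; black bars are the *Osr2KI-Cre;Ezh2fl/fl* means. The points of *Foxf2*, *Foxc1*, *Gmds* and *Foxd2os* are apart from the controls, while those of *Foxf1*, *Foxc2* and *Foxd2* overlap them.

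Genes beside the members were read from the same fits. Within 10 kb of 21 members lay 33 other genes of the table, of which 20 passed the filter and 2 were called higher (*Foxd2os* and *Gmds*) and 0 lower, beside 1.56% and 0.512% of all genes in that fit. Of the 33, 5 were higher and 1 was lower without overlap, beside 5.55% and 2.65% of all genes. *Foxd2os*, a noncoding transcript that starts 383 bases from *Foxd2* on the opposite strand, rose from 7.63 ± 0.688 to 12.1 ± 1.69 (SD, n = 4), without overlap of the groups. Its log2 fold change was 0.59 (SE 0.12, limma adjusted p = 0.0303 in the filtered fit and 0.0424 over all genes). *Foxd2*, a factor of kidney and facial mesenchyme, had values of 9.99, 9.62, 8.79 and 6.90 in control and 7.87, 11.8, 10.4 and 12.9 in *Osr2KI-Cre;Ezh2fl/fl* molars, which overlap (log2 fold change 0.25, limma adjusted p = 0.599). The difference between *Foxd2os* and *Foxd2* shifted by 0.34 on the log2 scale (exact permutation p = 0.0286, adjusted p = 0.114 over the 4 pairs compared, which were chosen after the values were seen). *Gmds*, an enzyme of GDP-fucose synthesis whose end lies 7102 bases from *Foxc1*, rose from 19.6 ± 1.91 to 26.7 ± 1.71. Its log2 fold change was 0.43 (limma adjusted p = 0.0429 in the filtered fit and 0.0497 over all genes). It rose by 0.14 less than *Foxc1* on the log2 scale, and that difference did not pass the exact permutation test (p = 0.2, adjusted p = 0.267). The calls of *Foxd2os* and *Gmds* were not repeated under the alternatives.

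*Fendrr*, a noncoding RNA that starts 1275 bases from *Foxf1*, had 31.2 ± 9.09 in control and 45.5 ± 6.62 in *Osr2KI-Cre;Ezh2fl/fl* molars, with overlap (log2 fold change 0.56, limma adjusted p = 0.202). Its change exceeded that of *Foxf1* by 0.47 (exact permutation p = 0.114, adjusted p = 0.228). The noncoding transcript *1700018A04Rik*, 23 bases from *Foxf2* on the opposite strand, had 1.96 ± 0.44 and 3.25 ± 0.91 (log2 fold change 0.51, limma adjusted p = 0.226), and its change differed from that of *Foxf2* by 0.04, within the spread between libraries (SD of the paired difference 0.17 in control and 0.266 in *Osr2KI-Cre;Ezh2fl/fl*). Whether the counting used strand is not given in the sources used here, so reads from overlapping genes on opposite strands cannot be told apart. The antisense transcript *Gm12446* overlaps *Foxe1* and had lower values in all 4 *Osr2KI-Cre;Ezh2fl/fl* libraries (0.179 ± 0.0515 and 0.069 ± 0.0172, limma adjusted p = 0.205 over all genes), on 6 to 13 estimated reads per control library and 2 to 5 per *Osr2KI-Cre;Ezh2fl/fl* library, the latter at or near the floor of 3.

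The 4 genes near zero in control were *Foxd1*, *Foxd3*, *Foxp2* and *Foxp3*. None reached the filter, and limma called none of them over all genes, where it called 1.21% of all near zero genes higher and 0.0423% lower; at an unadjusted p under 0.05 it gave *Foxp3*. Their median log2 fold change was 0.15, against 0.02 for all near zero genes, and it moved to 0.42 with a pseudocount of 0.1 and to -0.07 with a class limit of 0.2, which keeps *Foxd3* alone. *Foxd1*, a factor of kidney stroma and retina, had values of 0.191, 0.282, 0.705 and 0.168 in control and 0.531, 0.607, 0.226 and 1.05 in *Osr2KI-Cre;Ezh2fl/fl* molars, from 10, 20, 40 and 10 and from 27, 39, 15 and 80 estimated reads. The highest control value exceeds 3 of the 4 *Osr2KI-Cre;Ezh2fl/fl* values, and the means were 0.337 ± 0.25 and 0.602 ± 0.338 (SD, n = 4; log2 fold change 0.26, SE 0.16, limma adjusted p = 0.613). It had the highest ratio of means in the family, 1.79, on these few reads. Without *Osr2KI-Cre;Ezh2fl/fl* 4, its highest library, the log2 fold change of *Foxd1* was 0.13. *Foxd3*, a neural crest and pluripotency factor, had 2, 28, 10 and 10 estimated reads in control and 10, 1, 19 and 3 in *Osr2KI-Cre;Ezh2fl/fl* libraries, with *Osr2KI-Cre;Ezh2fl/fl* 2 and 4 and control 1 at or under the 3 reads taken as the floor. *Foxp2*, known for its part in speech and lung development, had 10, 57, 28 and 18 and 34, 24, 61 and 33 reads, and the groups overlap, with 2 control counts below every *Osr2KI-Cre;Ezh2fl/fl* count.

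*Foxp3*, the factor that defines regulatory T cells, had values of 0.308, 0.252, 0.402 and 0.325 in control and 0.479, 0.406, 0.494 and 0.472 in *Osr2KI-Cre;Ezh2fl/fl* molars. The groups touch closely without overlapping, on 17 to 22 and 24 to 36 estimated reads (log2 fold change 0.15, limma adjusted p = 0.284 over all genes). The T cell genes *Cd3e* and *Cd3g* were not in the table, and the other 4 blood and immune markers summed to 71.0 to 124 in control and 91.5 to 99.8 in *Osr2KI-Cre;Ezh2fl/fl* libraries. The gene overlaps *Ccdc22* (18.2 ± 0.692 and 17.7 ± 2.87) and *Gm36995* on the opposite strand, both at higher values. On the same strand *Foxp3* overlaps *Ppp1r3fos*, also at higher values (0.655 ± 0.168 and 0.854 ± 0.242, log2 fold change 0.16). The few reads of *Foxp3* are therefore of uncertain origin.

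**Figure D4:**
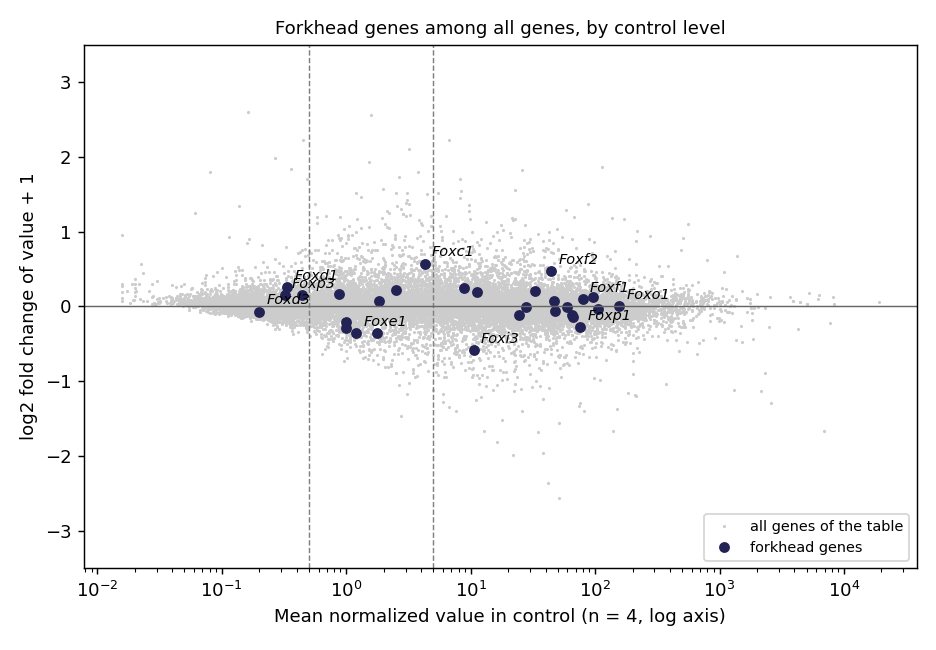
Mean control value (x axis, log scale, n = 4) against the log2 fold change of value + 1 (y axis) for all genes of the table (grey) and the 29 forkhead genes (dark), with class limits 0.5 and 5 dashed. The forkhead genes lie between -0.59 (*Foxi3*) and 0.57 (*Foxc1*).

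Of the 8 intermediate members, *Foxc1* was called, and the other 7 were not; limma called 2.01% of all intermediate genes higher and 0.457% lower. The median log2 fold change of the 8 was -0.07, beside 0.04 for all intermediate genes. *Foxj1*, the master factor of motile cilia, had 0.851, 0.778, 0.860 and 1.01 in control and 1.04, 1.24, 1.03 and 1.10 in *Osr2KI-Cre;Ezh2fl/fl* molars, just above the controls in all 4 (log2 fold change 0.17, limma adjusted p = 0.486). Of 14 genes of motile cilia 10 were in the table and 6 passed the filter, limma called none of these 6, with 1 higher at an unadjusted p under 0.05 (*Tekt2*, 5.35 ± 0.928 and 7.55 ± 1.88, SD, n = 4; limma adjusted p = 0.34), and their median log2 fold change was 0.03. *Foxo6*, a FoxO factor best known in brain, had a mean value of 2.51 ± 0.355 and 3.13 ± 0.734. *Foxs1*, known from pericytes and sensory neurons, had 1.00 ± 0.20 and 0.737 ± 0.186.

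*Foxe1*, *Foxn1* and *Foxi3* are known chiefly from epithelia: *Foxe1* in thyroid and palate, *Foxn1* in thymus and hair, and *Foxi3* in dental epithelium and other ectodermal placodes. *Foxi3* had values of 7.26, 11.5, 10.6 and 12.8 in control and 9.74, 4.25, 6.28 and 6.90 in *Osr2KI-Cre;Ezh2fl/fl* molars. Control 1 lies among the *Osr2KI-Cre;Ezh2fl/fl* values and *Osr2KI-Cre;Ezh2fl/fl* 1 lies above it, so the groups overlap (log2 fold change -0.59, 95% interval -1.09 to -0.08, limma adjusted p = 0.282, exact permutation p = 0.0571). *Foxe1* had 1.55, 1.09, 1.16 and 0.988 in control and 1.19, 0.713, 0.386 and 0.641 in *Osr2KI-Cre;Ezh2fl/fl* molars, with 3 of 4 below every control (log2 fold change -0.36, limma adjusted p = 0.334). It had the lowest ratio of means in the family, 0.611. *Foxn1* had 1.36, 1.35, 2.08 and 2.23 in control and 1.40, 0.698, 1.68 and 0.916 in *Osr2KI-Cre;Ezh2fl/fl* molars, which overlap (log2 fold change -0.35, limma adjusted p = 0.454).

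The epithelial marker list had the same direction. All 6 markers had negative log2 fold changes, with a median of -0.41, where 54.1% of all genes were positive. Limma called 0 of 6, with 3 lower at an unadjusted p under 0.05, beside 4.87% of all genes. Among them *Epcam* had 111 ± 10.8 and 80.5 ± 15.9 (SD, n = 4; limma adjusted p = 0.133). Of the ameloblast markers, *Amelx* ranged from 316 in *Osr2KI-Cre;Ezh2fl/fl* 4 to 16250 in control 4. *Foxn1* was highest in the 3 libraries high in enamel matrix transcripts, at 2.08 and 2.23 in control 3 and 4 and 1.68 in *Osr2KI-Cre;Ezh2fl/fl* 3, whereas *Foxe1* had its lowest values of each group in control 4 and *Osr2KI-Cre;Ezh2fl/fl* 3. With the level of the enamel matrix transcripts as a covariate the log2 fold change of *Foxn1* was -0.15, that of *Foxi3* -0.45 and that of *Foxe1* -0.48, and limma called none of them (adjusted p = 0.631, 0.415 and 0.156). The part of remaining epithelium in the values of these genes was not tested. Among the other lists, the 6 endothelial markers were all negative with a median of -0.18, and limma called 0. At an unadjusted p under 0.05 there were 3, all lower, beside 4.87% of all genes. Of 5 Schwann cell markers 1 was called lower, *Erbb3* (19.9 ± 1.31 and 14.6 ± 1.15, limma adjusted p = 0.0388), beside 0.512% of all genes.

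**Figure D5:**
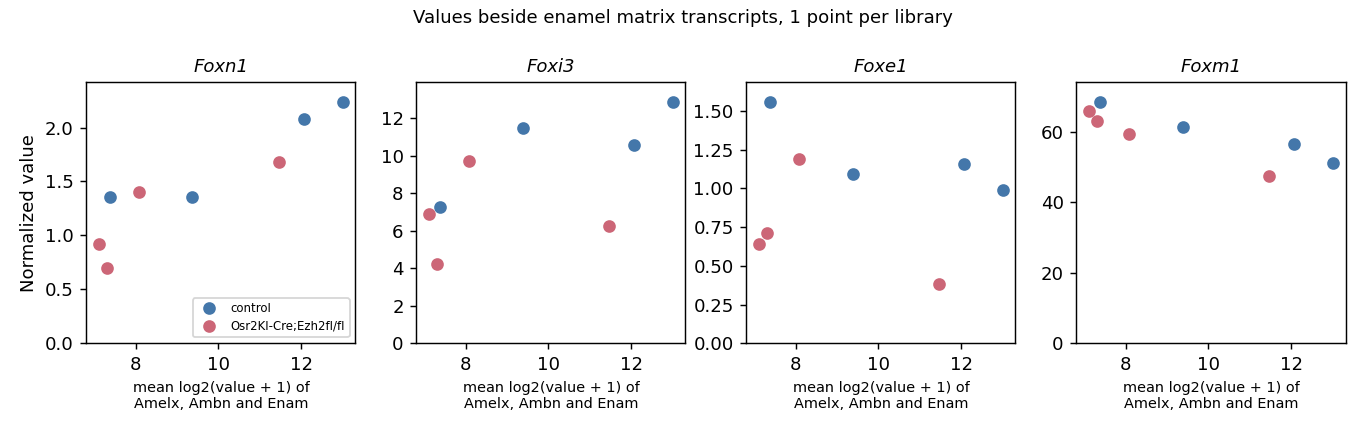
Normalized value (y axis, from 0) of *Foxn1*, *Foxi3*, *Foxe1* and *Foxm1* against the mean log2(value + 1) of *Amelx*, *Ambn* and *Enam* (x axis), 1 point per control (blue) or *Osr2KI-Cre;Ezh2fl/fl* (red) library. Control 3, control 4 and *Osr2KI-Cre;Ezh2fl/fl* 3 lie to the right at 11.5 to 13.02, where *Foxn1* has its 3 highest values.

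None of the 17 well expressed members was called. Their ratios of means ran from 0.644 (*Foxi3*) to 1.39 (*Foxf2*), their median log2 fold change was -0.00 beside 0.01 for all well expressed genes, and limma called 0.939% of all well expressed genes higher and 0.415% lower over all genes. At an unadjusted p under 0.05 there were 4 of 17 (*Foxf2*, *Foxp4*, *Foxi3* and *Foxp1*), beside 11.6% of all well expressed genes, and voom called none. Per kilobase of transcript the highest control levels after *Foxf1* were those of *Foxf2* (18.9 ± 1.99), *Foxo1* (18.0 ± 4.68), *Foxo3* (14.0 ± 2.31), *Foxo4* (13.7 ± 1.07) and *Foxk2* (12.7 ± 1.28). *Foxf2* and *Foxo1* differed by less than the SD of either gene, as did *Foxo3* and *Foxo4* and also *Foxo4* and *Foxk2*.

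The FoxO factors lie downstream of insulin and AKT and drive genes of stress resistance and quiescence. *Foxo1*, with the highest values of the family, had 215, 135, 125 and 148 in control and 111, 230, 116 and 183 in *Osr2KI-Cre;Ezh2fl/fl* molars. It varied more between libraries of a group than between groups, with means of 156 ± 40.6 and 160 ± 57.0 (SD, n = 4; log2 fold change 0.00, 95% interval -0.56 to 0.56). *Foxo3* had 128, 107, 103 and 85.7 in control and 94.8, 134, 73.6 and 115 in *Osr2KI-Cre;Ezh2fl/fl* molars (log2 fold change -0.04). *Foxo4* was the tightest, at 47.6 ± 3.74 and 45.7 ± 1.08. Of 12 known FoxO target genes that passed the filter, among them *Cdkn1b* (77.1 ± 6.29 and 79.2 ± 13.2) and *Irs2* (106 ± 8.96 and 89.1 ± 11.5), limma called 0, with 1 at an unadjusted p under 0.05 and a median of 0.02. Of the 10 genes upstream of FoxO, such as *Akt1* (230 ± 5.40 and 239 ± 8.05), it called 0, and their median was 0.02. At an unadjusted p under 0.05 limma gave 2 of them, both higher, beside 8.27% of all genes. They were *Sgk1* (25.5 ± 3.77 and 31.1 ± 1.61) and *Pik3r1* (313 ± 37.4 and 392 ± 66.5).

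*Foxm1*, the mitotic member, had 68.4, 61.4, 56.6 and 51.1 in control and 59.4, 63.1, 47.6 and 65.9 in *Osr2KI-Cre;Ezh2fl/fl* molars. The groups overlap widely (log2 fold change -0.01, 95% interval -0.28 to 0.26). In each group its lowest value was in a library high in enamel matrix transcripts, control 4 and *Osr2KI-Cre;Ezh2fl/fl* 3. With the enamel covariate its log2 fold change was -0.17 (SE 0.07, limma adjusted p = 0.283). Its 12 known targets gave 2 positive and 10 negative log2 fold changes with a median of -0.10; limma called 0, and 0 reached an unadjusted p under 0.05. *Mki67* among them had 369 ± 59.2 and 323 ± 78.1.

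The FoxP factors are repressors with a zinc finger and a leucine zipper beside the forkhead domain. *Foxp1* had 71.4, 80.1, 78.9 and 71.7 in control and 71.8, 56.2, 63.9 and 57.5 in *Osr2KI-Cre;Ezh2fl/fl* molars, with only *Osr2KI-Cre;Ezh2fl/fl* 1 within the control range (log2 fold change -0.28, limma adjusted p = 0.188, exact permutation p = 0.0857). *Foxp4* had 32.6, 34.1, 31.6 and 32.8 in control and 40.8, 39.9, 34.3 and 37.3 in *Osr2KI-Cre;Ezh2fl/fl* molars. Its lowest *Osr2KI-Cre;Ezh2fl/fl* value is barely above the highest control (log2 fold change 0.21, limma adjusted p = 0.236). The differences of these paralogs had opposite signs, and neither was called.

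The remaining well expressed members are broadly expressed factors. *Foxn3*, a repressor linked to the cell cycle, had 91.6, 96.7, 90.9 and 109 in control and 97.7, 104, 131 and 94.1 in *Osr2KI-Cre;Ezh2fl/fl* molars, which overlap (log2 fold change 0.13). *Foxk1* and *Foxk2*, regulators of metabolism and autophagy, had 65.2 ± 2.02 and 60.2 ± 5.94, and 66.9 ± 6.75 and 61.0 ± 11.2. For *Foxk2* the single values were 75.3, 61.8, 69.4 and 61.0 in control and 54.7, 73.3, 48.8 and 67.2 in *Osr2KI-Cre;Ezh2fl/fl* molars, and the log2 fold change of -0.14 had an interval from -0.44 to 0.15. *Foxj2*, *Foxj3* and *Foxn2* had means of 28.1 ± 4.51, 46.8 ± 2.29 and 24.5 ± 2.46 in control and 28.2 ± 6.20, 49.3 ± 4.32 and 22.6 ± 1.76 in *Osr2KI-Cre;Ezh2fl/fl* molars, all with log2 fold changes between -0.12 and 0.07.

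Because *Foxf1* and *Foxf2* are known hedgehog responders, 9 hedgehog genes were read beside them. Limma called 0 of the 9, with 3 higher and 1 lower at an unadjusted p under 0.05, beside 8.27% and 4.87% of all genes, and their median log2 fold change was 0.16. The groups did not overlap, as in 5.55% of all genes, in *Gli1*, the usual readout of the pathway (137 ± 8.83 and 172 ± 14.9, limma adjusted p = 0.0875), *Hhip* (74.8 ± 6.90 and 97.5 ± 17.1, limma adjusted p = 0.215) and *Gli3* (103 ± 3.10 and 121 ± 16.9, limma adjusted p = 0.328). *Shh*, the ligand made by the dental epithelium, had 203 ± 37.4 and 133 ± 31.1 (log2 fold change -0.62, limma adjusted p = 0.157), the direction of the epithelial markers. These genes were named after their values were seen.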

How the data were processed

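RNA-seq values of PN day 3 molar mesenchyme from 4 *Ezh2fl/fl* (control) and 4 *Osr2KI-Cre;Ezh2fl/fl* libraries were used, grouped by the sample titles. The paper describes TopHat alignment of single-end reads of 75 cycles to mm10 and RPKM values, while the submitters' processing notes name CASAVA 1.8.2, STAR 2.5.3a and Partek, and the order and role of these tools are not given in the sources used here. The values deposited by the authors were handled as a normalized signal, because they carry no gene-length factor, are never 0 and share a 75th percentile. The smallest value of each library was taken as the offset of 1 read that every gene carries, and the value divided by it, minus 1, as the estimated reads. Of the low values, 62.5% were whole multiples of it (tolerance 0.02), so no count test was used as the main test; voom on the estimated reads was an alternative. A floor of 3 reads was used. The floor covers counting error only.

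Differences were tested with limma 3.58.1 in R 4.3.3 (mean-variance trend, log2(value + 1), Benjamini-Hochberg adjustment, threshold 0.05), over genes that reached a value of 1 in 4 or more libraries and over all 20926 genes. Exact two-sided permutation tests covered all 70 arrangements. The scripts were tested on simulated data. Gene names, neighbours and the distances between genes were taken from the annotation deposited with the values. Exon lengths, the coordinates given for *Foxc1* and the count of forkhead names came from GENCODE M21, and promoters from RefSeq. Python 3.11.15 and pandas 2.3.3 were used. Full values are given for members called or without overlap, the 6 highest in control, and the 3 largest rises and falls; further members are given in full where a paragraph describes their group. The members and gene lists were chosen with earlier results of these data known. Alternatives were pseudocounts, scalings, filters, weights, a replicate block, an enamel covariate, voom and each library left out; leaving out 3 libraries together was chosen after seeing the data. No columns of other samples were present (0).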

Additional observations from a re-analysis of the deposited data

Results flagged for a closer look

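Of the 58 sets of 4 values examined for a value far from the other 3 (29 members in both groups), 2 held such a value, and chance would give about 2.9. *Foxn2* was 28.2 in control 1 against 22.9 to 23.6 in the other controls (1622 estimated reads against 1329 to 1759). *Foxo6* was 3.04 in control 4 against 2.31 to 2.38 in the other controls (198 estimated reads against 134 to 171). Neither gene was called.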

How the results depend on the processing

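The count of members called (1 in both fits) was 9 and 9 with array weights (*Foxc1*, *Foxd2*, *Foxe1*, *Foxf2*, *Foxi3*, *Foxn1*, *Foxp1* and *Foxp4* in both, with *Foxj1* in the filtered and *Foxs1* in the all-gene fit), where 27.2% and 11.2% of all genes tested were called. It was 0 and 0 with the replicate block, 0 with a filter at a value of 10, which *Foxc1* cannot pass, 0 and 0 with a fold change of at least 1.5 on the log2(value + 1) scale, and 0 and 0 without the 3 libraries high in enamel matrix transcripts, where 1 and 2 of all genes were called. Leaving out each library gave 0 to 1 in both fits: the call of *Foxc1* was lost without control 1, 2, 3 or 4 or *Osr2KI-Cre;Ezh2fl/fl* 4 in both, and without *Osr2KI-Cre;Ezh2fl/fl* 3 in the all-gene fit. The number of members without overlap was 5 to 9 when each library was left out (17.2% to 31.0% of members, beside 9.42% to 13.6% of all genes). It was 9 without *Osr2KI-Cre;Ezh2fl/fl* 1, where the share of all genes was 13.5%. Without the 3 libraries it was also 9, beside 2640 higher and 2126 lower of all 20926 genes. The replicate numbers did not pair the libraries, with correlations of same-numbered deviations of -0.34, -0.08, 0.22 and -0.43, and the block took the calls in the filtered fit from 232 higher and 76 lower to 64 and 9. The study's methods give 4 samples per group and also mention 3 pairs, without saying which libraries form them.

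The near zero median, 0.15, was -0.0683 with limits of 0.2 and 10 and 0.42 with a pseudocount of 0.1, and its difference from the well expressed median was -0.0612 and 0.43. Of 536 results of single members under alternatives, 493 kept direction and side of the threshold, 9 passed it (array weights), 7 fell below it (*Foxc1*), and 27 in 9 members turned direction. With array weights *Foxc2* was -0.12, *Foxj2* 0.0708, *Foxk2* 0.016, *Foxm1* 0.15, *Foxo3* 0.13, *Foxp2* -0.0458 and *Foxq1* -0.10. With voom *Foxj2* was 0.0074 and *Foxo1* -0.0041, and *Foxo1* was -0.0191 with median-of-ratios scaling, -0.24 with the enamel covariate and -0.0276 without the 3 libraries. When each library was left out, *Foxc2* ran from -0.0604 to 0.23, *Foxd3* from -0.13 to 0.0046, *Foxj2* from -0.13 to 0.10, *Foxm1* from -0.0795 to 0.0864, *Foxo1* from -0.19 to 0.17 and *Foxo3* from -0.17 to 0.11. The cause of these changes was not tested. Depth limits the near zero members, at 1 to 80 reads per library.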
